A study of Mus musculus with 6 samples.

Results

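The genes described here are 47 genes of mitosis, found by their symbols among the 24421 genes of the deposited count table: the kinase Cdk1 with its cyclins and CDC25 phosphatases, the Aurora and Polo kinases, the spindle checkpoint, the mitotic kinesins, the kinetochore, the condensin complex and the transcription factor Foxm1. All 47 symbols were present and all 47 passed the filter on low counts. They were measured by RNA sequencing in constructs of engineered skeletal muscle made from C2C12, an established mouse myoblast line that stops dividing and fuses into myotubes in low serum. Myoblasts were mixed into type I collagen and seeded in a silicone device fitted with artificial tendons, and spent 2 days in growth medium before differentiation in medium with 7% horse serum. Baseline force was taken on day 14. The vehicle group held 3 constructs given phosphate-buffered saline, and the TNF-alpha group held 3 constructs given tumour necrosis factor alpha at 100 ng/mL, both for 72 h. All constructs came from 1 cell line. The labels call them biological replicates without saying whether they came from separate cultures, and p-values therefore reflect only how far these constructs varied, which may be technical.

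Mitosis is driven by CDK1 bound to cyclin A or cyclin B. The Aurora and Polo kinases then build the spindle, kinetochores couple chromosomes to microtubules, and the spindle checkpoint holds back the anaphase-promoting complex (APC/C) until every chromosome is attached. Transcripts of these genes are made mainly in the G2 and M phases of dividing cells, under FOXM1, B-MYB and the MuvB complex, and are kept low in resting cells by the DREAM complex. Myotubes are post-mitotic, so in muscle cultures these transcripts are known mainly from the mononucleated cells that still divide.

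Each library held 81713008 to 93533748 estimated counts assigned to genes, and a single mitotic gene held between 27.5 and 11428 counts in a library. Values are given as CPM (counts per 1e6 assigned counts) scaled by the TMM method, and log2 fold changes are of TNF-alpha against vehicle with their standard error. All are RNA levels, also where a protein or complex is named, and they give no measure of protein. Differences were tested with edgeR's quasi-likelihood test over 15792 genes, with Benjamini-Hochberg adjustment and a threshold of 0.05. Of all tested genes 55.5% were called, and 27.6% rose and 27.9% fell.

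Every one of the 47 mitotic genes was lower with TNF-alpha. All 47 fell by edgeR's test and 0 rose, beside 27.9% of all tested genes that fell. The 47 genes were chosen with earlier results of these data known and varied together, so the count was not tested against that share. A fall of at least 2-fold was found in 46 of the 47 genes (9.46% of all tested genes) and one of at least 4-fold in 25 (3.71% of all tested genes). Their median log2 fold change was -2.04, with a range from -2.99 to -0.38, against a median of 0.00 over all tested genes. In all 47 genes the 3 TNF-alpha libraries lay below the 3 vehicle libraries, as in 31.9% of all tested genes, and 64.5% of all tested genes had groups that did not overlap in either direction. In each vehicle library the 47 genes together took 0.157%, 0.116% and 0.176% of the counts (replicates 1, 2 and 3), and in the TNF-alpha libraries 0.0271%, 0.0570% and 0.0424%. The mean share was 0.150% ± 0.0311 with vehicle and 0.0422% ± 0.0149 with TNF-alpha (SD, n = 3), 3.55 times lower (p = 0.1 by an exact two-sided permutation test, which cannot go lower with 3 libraries a group). In whole constructs, fewer dividing cells and less RNA of these genes per cell cannot be told apart.

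**Figure D1:**
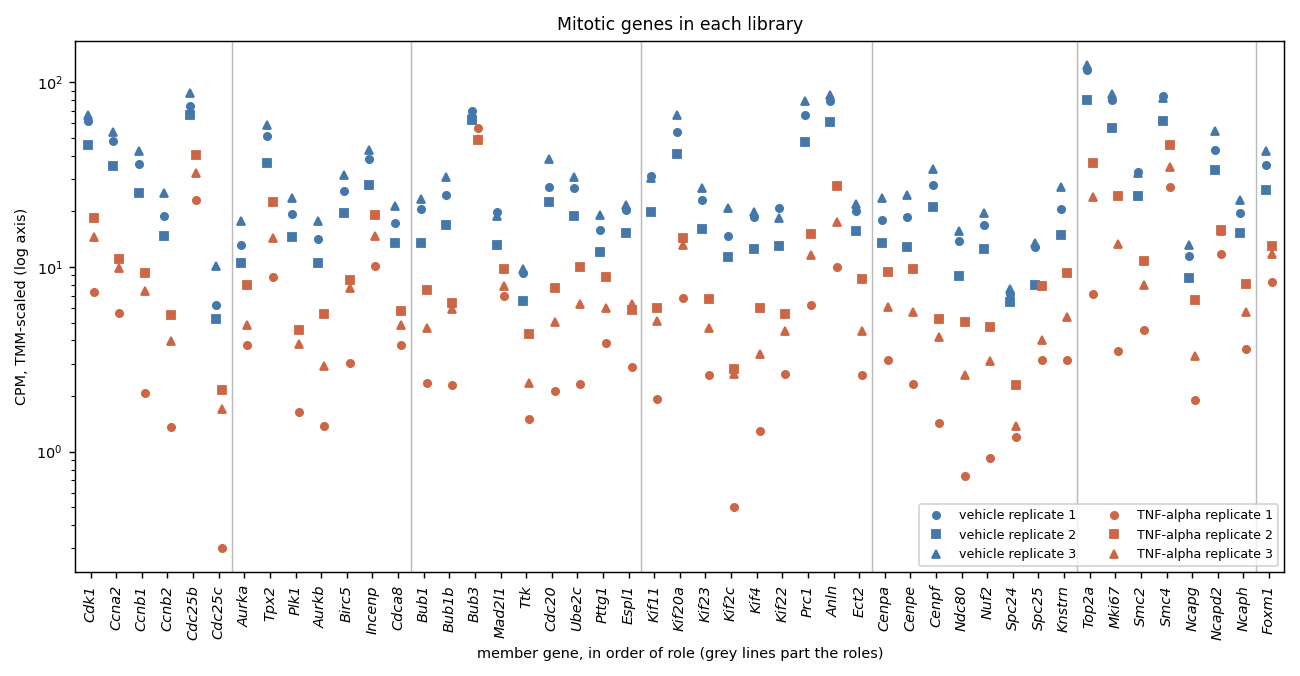
CPM of each of the 47 mitotic genes in each of the 6 libraries (log axis), with vehicle in blue, TNF-alpha in orange and 1 marker shape for each replicate number. In all 47 genes the orange points lie below the blue points, and TNF-alpha replicate 1 is the lowest point for 46 of them.

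The number of calls and the size of some falls depended on which libraries were included. Of the 47 calls, 34 held under all 14 alternative analyses and 13 were lost under at least 1, with no change of direction. With TNF-alpha replicate 3 left out, 34 genes were called as fallen, the lowest number under any alternative. Left out in the same way, vehicle replicate 3 gave 38, vehicle replicate 1 gave 40, TNF-alpha replicate 1 gave 46, and vehicle replicate 2 and TNF-alpha replicate 2 gave 47 each. The 13 genes whose calls were lost at least once were Cdc25c, Aurkb, Ube2c, Kif4, Ect2, Cenpa, Cenpe, Ndc80, Spc25, Knstrn, Top2a, Mki67 and Ncapg.

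Transcripts of Cdk1, whose kinase starts mitosis, fell with those of its partners. Cdk1 (chromosome 10, 69335146 to 69352938, minus strand, GRCm38) had 61.6, 45.7 and 66.9 CPM in the vehicle libraries and 7.32, 18.4 and 14.5 CPM in the TNF-alpha libraries (replicates 1, 2 and 3 in each case). Even the highest TNF-alpha library lay far below the lowest vehicle library. Cdk1 fell 4.33-fold (log2 fold change -2.12 ± 0.36, adjusted p = 0.00365). Ccna2, encoding cyclin A2, which acts in S phase and early mitosis, had 47.9, 35.3 and 54 CPM in the vehicle libraries and 5.63, 11 and 9.88 CPM in the TNF-alpha libraries (log2 fold change -2.37 ± 0.29, adjusted p = 0.000776). Ccnb1, encoding cyclin B1, the main mitotic partner of CDK1, had 36.1, 25.2 and 42.3 CPM in the vehicle libraries and 2.07, 9.28 and 7.42 CPM in the TNF-alpha libraries (log2 fold change -2.47 ± 0.55, adjusted p = 0.0107). Cyclin B2, the product of Ccnb2, fell at the transcript level by 2.45 ± 0.51 on the log2 scale (adjusted p = 0.0087). The groups did not overlap for any of these cyclin genes, and in each the TNF-alpha library of replicate 1 was the lowest.

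The CDC25 phosphatases remove the inhibitory phosphates from CDK1. Cdc25b fell from 76 ± 10.9 to 31.9 ± 8.74 CPM (mean ± SD of 3 libraries), a log2 fold change of -1.25 ± 0.21 (adjusted p = 0.00268). Its 95% interval of -1.77 to -0.74 overlapped that of Ccnb1 (-3.82 to -1.12), but both come from the same libraries and the difference between their falls was not tested. Cdc25c, low in all libraries, had 6.2, 5.21 and 10.2 CPM in the vehicle libraries and 0.30, 2.15 and 1.69 CPM in the TNF-alpha libraries (log2 fold change -2.39 ± 0.67, adjusted p = 0.0259), and its adjusted p reached 0.066 at its highest over the alternatives. Counted per kilobase of exon, Cdc25b was the most abundant of the 47 transcripts in both groups, at 20.4 CPM per kilobase with vehicle and 8.55 with TNF-alpha.

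Transcripts for Aurora A, Polo-like kinase 1 and the chromosomal passenger complex all fell. Plk1, whose kinase acts from mitotic entry to cytokinesis, had 19.4, 14.5 and 23.7 CPM in the vehicle libraries and 1.65, 4.57 and 3.83 CPM in the TNF-alpha libraries. It fell 5.75-fold (log2 fold change -2.52 ± 0.40, adjusted p = 0.00229), the largest change among the 7 genes of this role. Aurka, encoding the Aurora kinase of the spindle poles, had 13.1, 10.4 and 17.7 CPM in the vehicle libraries and 3.77, 7.95 and 4.85 CPM in the TNF-alpha libraries (log2 fold change -1.32 ± 0.31, adjusted p = 0.0102). Its activator on microtubules, Tpx2, fell by 1.69 ± 0.37 (adjusted p = 0.0103). In the passenger complex, which corrects faulty kinetochore attachments, the kinase gene Aurkb fell by 2.12 ± 0.51, the survivin gene Birc5 by 2.00 ± 0.41, the borealin gene Cdca8 by 1.85 ± 0.21 and the scaffold gene Incenp by 1.31 ± 0.27 on the log2 scale. Cdca8 was among the least variable of the 47 between TNF-alpha libraries, with 17.2, 13.4 and 21.3 CPM in the vehicle libraries and 3.78, 5.75 and 4.86 CPM in the TNF-alpha libraries (adjusted p = 0.000184). Aurkb varied far more, with 14.2, 10.5 and 17.8 CPM in the vehicle libraries and 1.38, 5.56 and 2.9 CPM in the TNF-alpha libraries (adjusted p = 0.0151). Its log2 fold change was -2.74 without TNF-alpha replicate 2, and leaving out TNF-alpha replicate 3 gave an adjusted p of 0.058. Birc5 carried fractional counts in all 6 libraries, so its value is less certain. Of the 47 genes, 21 carried fractional counts in at least 1 library. Kif20a had them in 5, and Ccna2, Cdc20, Kif11 and Prc1 in 4 each.

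Spindle checkpoint genes fell as well, with 1 of small size. Bub1b, encoding BUBR1 of the mitotic checkpoint complex, had 24.5, 16.8 and 30.6 CPM in the vehicle libraries and 2.3, 6.4 and 5.92 CPM in the TNF-alpha libraries (log2 fold change -2.30 ± 0.43, adjusted p = 0.0058). The checkpoint kinase genes Bub1 and Ttk fell by 1.99 ± 0.45 and 1.65 ± 0.38 (adjusted p = 0.0115 and 0.00898). Mad2l1, whose product MAD2 inhibits CDC20, fell by 1.07 ± 0.18 (adjusted p = 0.00151). Bub3, the partner of BUB1 and BUBR1, differed least of all 47 genes, with 70.0, 62.2 and 68.2 CPM in the vehicle libraries and 56.3, 49 and 49.1 CPM in the TNF-alpha libraries. The groups of Bub3 lay close together without overlap, and the log2 fold change was -0.38 ± 0.08 (adjusted p = 0.00297). The 95% interval of Bub3 (-0.55 to -0.20) did not reach that of Bub1b (-3.38 to -1.23), and the difference between their falls was not tested. Bub3 was also the only member for which TNF-alpha replicate 1 was not the lowest TNF-alpha library.

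Downstream of the checkpoint, genes of anaphase fell in the same direction. Cdc20, the activator of the APC/C that the checkpoint restrains, had 27.2, 22.4 and 38.5 CPM in the vehicle libraries and 2.12, 7.65 and 5.04 CPM in the TNF-alpha libraries and fell 5.97-fold (log2 fold change -2.58 ± 0.48, adjusted p = 0.00565). The ubiquitin-conjugating enzyme of the APC/C, Ube2c, fell by 2.04 ± 0.52 (adjusted p = 0.0188, and at most 0.0628 over the alternatives). The securin gene Pttg1 fell by 1.33 ± 0.31, and Espl1, the gene of separase, the protease that securin holds inactive, by 1.93 ± 0.30 (adjusted p = 0.0106 and 0.00165). The Ube2c value is uncertain because its exons overlap those of Tnnc2, the fast troponin C gene on the opposite strand, which had 652 CPM with vehicle and 208 CPM with TNF-alpha, and Ube2c had fractional counts in all 6 libraries. Exons of 10 members overlap those of another gene of the table, and in 9 of these that gene lies on the opposite strand. Counting every gene of the annotation, 16 members have such an overlap, among them Foxm1 with 2 genes on its own strand. The library kit keeps strand, but no source used here says whether the counting did. Elovl1, the opposite-strand neighbour of Cdc20, had 71.2 CPM with vehicle and 69.6 CPM with TNF-alpha (log2 fold change -0.03 ± 0.07, adjusted p = 0.694).

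Kinesins and cytokinesis genes held the largest single fall, and 8 of these 9 genes fell at least 4-fold. Kif2c, encoding the microtubule-depolymerizing kinesin MCAK, had 14.8, 11.4 and 21 CPM in the vehicle libraries and 0.503, 2.81 and 2.64 CPM in the TNF-alpha libraries. It fell 7.96-fold (log2 fold change -2.99 ± 0.62, adjusted p = 0.00832), the largest fitted change of the 47 genes, but its 95% interval of -4.52 to -1.46 took in the estimates of most other members. Kif11, the motor that pushes spindle poles apart, had 31.1, 19.8 and 30.4 CPM in the vehicle libraries and 1.92, 5.97 and 5.08 CPM in the TNF-alpha libraries (log2 fold change -2.65 ± 0.44, adjusted p = 0.00356). All 3 TNF-alpha libraries of Kif11 lay far below the lowest vehicle library.

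Genes for motors of the central spindle fell alongside the gene for a protein that bundles it. Prc1, the crosslinker of antiparallel microtubules, had 66.1, 47.3 and 79.7 CPM in the vehicle libraries and 6.23, 15 and 11.6 CPM in the TNF-alpha libraries (log2 fold change -2.56 ± 0.37, adjusted p = 0.00194). Kif20a, the kinesin that carries the passenger complex to the midzone, fell from 53.9 ± 12.6 to 11.4 ± 4.04 CPM, a log2 fold change of -2.24 ± 0.33 (adjusted p = 0.00208), and Kif23, the motor of centralspindlin, by 2.24 ± 0.37 (adjusted p = 0.00285). The chromokinesin genes Kif4 and Kif22 fell by 2.25 ± 0.54 and 2.04 ± 0.30 (adjusted p = 0.0148 and 0.00117). Kif4 had a log2 fold change of -2.87 without TNF-alpha replicate 2 and an adjusted p of 0.0556 at its highest over the alternatives. Of the genes of the contractile ring, Anln, encoding anillin, fell from 75.1 ± 12.8 to 18.3 ± 8.74 CPM, a log2 fold change of -2.04 ± 0.38 (adjusted p = 0.00531). The RhoA activator gene Ect2 fell by 1.88 ± 0.43 (adjusted p = 0.0128, and 0.0512 without TNF-alpha replicate 3).

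**Figure D2:**
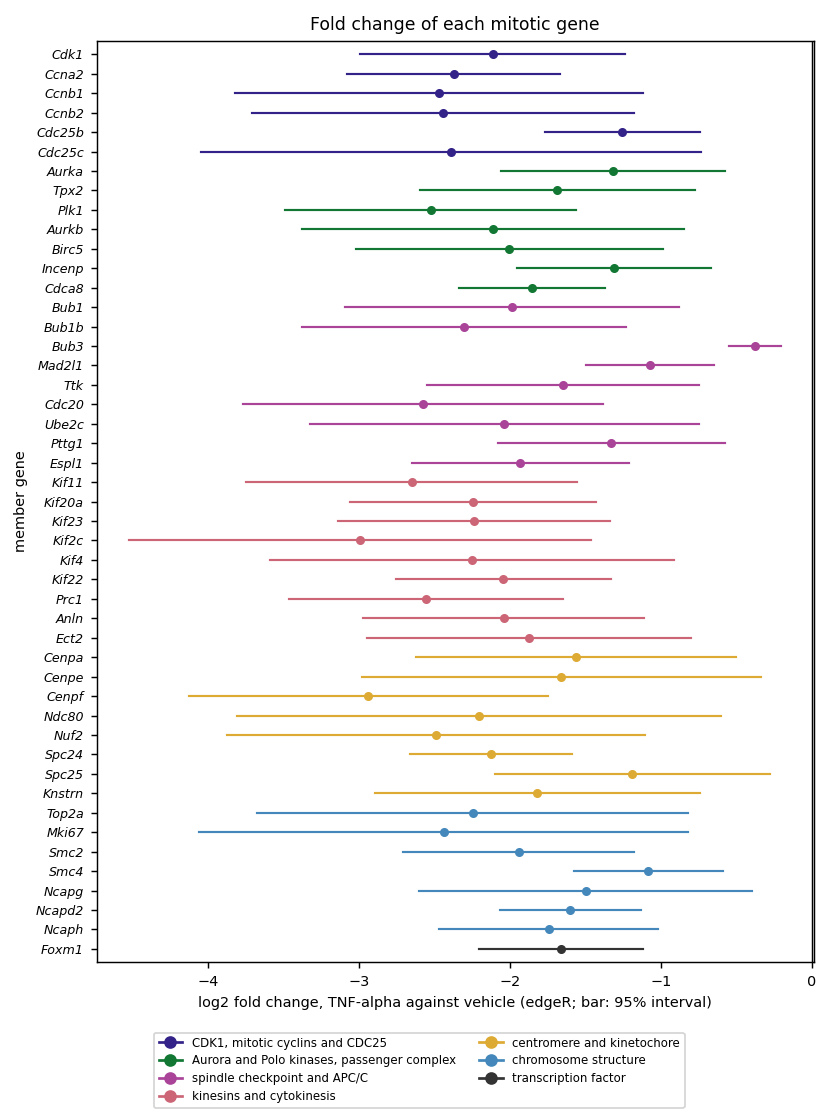
Log2 fold change of each of the 47 mitotic genes (points) with its 95% interval from edgeR (bars), coloured by role. All intervals lie below 0, with estimates from Bub3 at -0.38 to Kif2c at -2.99, and the intervals of most genes overlap one another. Differences between genes were not tested.

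Centromere and kinetochore genes fell, with a median coefficient of variation of 53.5% between TNF-alpha libraries. Cenpf, a large corona protein, had 27.9, 21.2 and 33.8 CPM in the vehicle libraries and 1.42, 5.24 and 4.19 CPM in the TNF-alpha libraries and fell 7.66-fold (log2 fold change -2.94 ± 0.48, adjusted p = 0.00328). The kinesin of the corona, Cenpe, fell by 1.66 ± 0.53, with the highest adjusted p of the 47 genes (0.0417), and Cenpa, the histone H3 variant that marks the centromere, fell by 1.56 ± 0.43 (adjusted p = 0.024). Over the alternatives the adjusted p reached 0.115 for Cenpe and 0.076 for Cenpa. Knstrn, which encodes a kinetochore and spindle protein bound to astrin, fell by 1.82 ± 0.44 (adjusted p = 0.0146, and at most 0.0557). Of these 8 genes, 3 passed the threshold without TNF-alpha replicate 3, and 4 each without vehicle replicate 1 or vehicle replicate 3. All 8 kept a negative log2 fold change in these fits. Cenpf carried fractional counts in all 6 libraries.

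Genes for the 4 subunits of the NDC80 complex, which holds the microtubule at the kinetochore, all fell. Ndc80 had 13.8, 8.97 and 15.7 CPM in the vehicle libraries and 0.738, 5.04 and 2.59 CPM in the TNF-alpha libraries (log2 fold change -2.21 ± 0.65, adjusted p = 0.0307). Its partner Nuf2 had 16.9, 12.5 and 19.5 CPM in the vehicle libraries and 0.92, 4.72 and 3.08 CPM in the TNF-alpha libraries (log2 fold change -2.49 ± 0.56, adjusted p = 0.0114). In both, TNF-alpha replicate 2 held over 5 times the CPM of TNF-alpha replicate 1. Spc24 had 7.11, 6.45 and 7.62 CPM in the vehicle libraries and 1.2, 2.29 and 1.37 CPM in the TNF-alpha libraries, with close vehicle values and the lowest adjusted p of the 47 genes (log2 fold change -2.13 ± 0.23, adjusted p = 0.000108), although it had fractional counts in all 6 libraries. Spc25 fell by 1.19 ± 0.38 (adjusted p = 0.0352). Its vehicle replicate 2 and TNF-alpha replicate 2 nearly met, at 7.99 and 7.86 CPM, and leaving out TNF-alpha replicate 1 gave an adjusted p of 0.0782, with at most 0.112 over the alternatives. The log2 fold change of Ndc80 was -2.96 without TNF-alpha replicate 2 and its adjusted p at most 0.0952. Per kilobase of exon, the means with vehicle were 1.98 for Ndc80, 2.57 for Nuf2, 2.74 for Spc24 and 3.58 CPM for Spc25.

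Genes of chromosome structure fell too. Top2a, the topoisomerase that untangles sister chromatids, had 117, 80.1 and 124 CPM in the vehicle libraries and 7.15, 36.6 and 24 CPM in the TNF-alpha libraries (log2 fold change -2.25 ± 0.58, adjusted p = 0.019). Mki67, encoding the proliferation marker Ki-67 that coats mitotic chromosomes, had 79.8, 56.9 and 86.1 CPM in the vehicle libraries and 3.49, 24.3 and 13.4 CPM in the TNF-alpha libraries (log2 fold change -2.44 ± 0.65, adjusted p = 0.0222). TNF-alpha replicate 2 held about 7 times the Mki67 level of TNF-alpha replicate 1, while the vehicle libraries lay within a factor of 2. Without TNF-alpha replicate 2 the log2 fold change of Mki67 was -3.15, and over the alternatives its adjusted p reached 0.0743 and that of Top2a 0.0614.

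Genes for the 5 subunits of condensin I, which compacts chromosomes, fell between 2.12-fold and 3.84-fold. The ATPase subunit Smc4 had 83.8, 61.9 and 81.9 CPM in the vehicle libraries and 27.3, 45.5 and 34.7 CPM in the TNF-alpha libraries (log2 fold change -1.08 ± 0.21, adjusted p = 0.0043). Smc2, which pairs with it, had 32.8, 24.2 and 32.1 CPM in the vehicle libraries and 4.55, 10.7 and 8.0 CPM in the TNF-alpha libraries (log2 fold change -1.94 ± 0.31, adjusted p = 0.00257). Per kilobase of exon Smc4 stood at 14.6 and Smc2 at 5.43 CPM with vehicle, and at 6.88 and 1.41 with TNF-alpha. The subunits particular to condensin I, Ncapd2, Ncaph and Ncapg, fell 3.03-fold, 3.34-fold and 2.82-fold (adjusted p = 0.000472, 0.00281 and 0.0315). Ncapg had a log2 fold change of -2.10 without TNF-alpha replicate 2 and an adjusted p of at most 0.104.

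Foxm1, the transcription factor that drives many genes of G2 and M phase, had 35.4, 26 and 42.6 CPM in the vehicle libraries and 8.26, 12.9 and 11.7 CPM in the TNF-alpha libraries. It fell 3.16-fold (log2 fold change -1.66 ± 0.23, adjusted p = 0.000876) and held its call under all 14 alternatives. Its partner in the same programme, Mybl2, encoding B-MYB, had 8.25, 7.43 and 9.33 CPM in the vehicle libraries and 1.42, 2.82 and 2.64 CPM in the TNF-alpha libraries (log2 fold change -1.86 ± 0.24, adjusted p = 0.000353).

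Promoters are shown for members because genes of this programme are known to share 2 short elements, the cell cycle homology region (CHR, letters TTTGAA), which MuvB binds, and the CCAAT box (letters CCAAT), which NF-Y binds. RefSeq promoters on GRCm38.p6, from 250 bases before to 50 bases after each annotated start, were found for 38 of the 47 genes, 3 of them with more than 1 start, and both strands were searched. A CHR was present in 28 of the 38 (73.7%), against 20.2% of the 27025 genes in the table and 14.4% of its 11597 genes tested here. The CCAAT box was present in 29 (76.3%), against 41.1% and 42.4%. Both were present in 25 (65.8%), against 7.97% and 5.85%. Pairs of CCAAT boxes on 1 strand whose first bases lay 28 to 36 bases apart were found in 8 (21.1%), against 1.78% and 2.77%. These shares describe the letters of the promoters, and the members were not chosen by them. The second share of each pair is over genes that passed the filter on low counts.

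The 250 bases before the start are printed 5′ to 3′ on the gene's strand for the 5 members with the smallest p that have an entry (Cdca8, Ncapd2, Kif22, Mad2l1 and Espl1), and for Cdk1, Cdc20 and Ccnb1, chosen after their motifs and values were seen because they show CHR and CCAAT together or a CCAAT pair alone. Capitals mark the CHR and the CCAAT box in either orientation. The windows are chr4:124936918-124937167, chr6:125191587-125191836, chr7:127042421-127042670, chr10:69352913-69353162, chr4:118437344-118437593 and chr13:100786487-100786736 on the minus strand, and chr6:66534971-66535220 and chr15:102296043-102296292 on the plus strand.
Cdca8: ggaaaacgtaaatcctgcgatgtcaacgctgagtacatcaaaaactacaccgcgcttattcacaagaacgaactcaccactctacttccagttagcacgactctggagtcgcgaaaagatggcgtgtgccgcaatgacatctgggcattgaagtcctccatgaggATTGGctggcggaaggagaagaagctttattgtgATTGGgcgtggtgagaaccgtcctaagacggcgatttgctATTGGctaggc
Ncapd2: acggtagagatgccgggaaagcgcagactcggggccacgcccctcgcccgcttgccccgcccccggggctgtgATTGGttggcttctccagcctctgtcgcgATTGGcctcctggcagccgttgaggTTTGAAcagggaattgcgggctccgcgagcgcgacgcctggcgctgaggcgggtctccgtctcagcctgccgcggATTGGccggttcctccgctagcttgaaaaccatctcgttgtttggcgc
Kif22: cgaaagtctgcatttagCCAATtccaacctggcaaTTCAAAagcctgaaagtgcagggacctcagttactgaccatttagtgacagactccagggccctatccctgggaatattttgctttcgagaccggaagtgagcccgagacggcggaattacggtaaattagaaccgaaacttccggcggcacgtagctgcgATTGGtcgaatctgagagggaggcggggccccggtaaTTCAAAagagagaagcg
Mad2l1: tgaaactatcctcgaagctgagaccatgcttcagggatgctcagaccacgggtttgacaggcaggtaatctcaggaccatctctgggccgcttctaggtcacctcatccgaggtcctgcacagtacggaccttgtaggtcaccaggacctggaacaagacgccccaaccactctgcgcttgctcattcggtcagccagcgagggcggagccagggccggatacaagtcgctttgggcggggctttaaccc
Espl1: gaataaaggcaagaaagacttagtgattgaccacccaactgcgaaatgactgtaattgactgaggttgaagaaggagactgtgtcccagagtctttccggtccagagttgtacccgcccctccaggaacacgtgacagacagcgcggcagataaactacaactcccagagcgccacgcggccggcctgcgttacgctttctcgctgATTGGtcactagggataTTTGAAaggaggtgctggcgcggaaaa
Cdk1: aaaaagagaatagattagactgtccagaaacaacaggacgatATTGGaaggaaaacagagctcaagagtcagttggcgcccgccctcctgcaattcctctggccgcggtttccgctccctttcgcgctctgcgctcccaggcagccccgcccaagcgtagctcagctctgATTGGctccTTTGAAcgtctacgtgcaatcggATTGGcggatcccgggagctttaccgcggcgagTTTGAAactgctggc
Cdc20: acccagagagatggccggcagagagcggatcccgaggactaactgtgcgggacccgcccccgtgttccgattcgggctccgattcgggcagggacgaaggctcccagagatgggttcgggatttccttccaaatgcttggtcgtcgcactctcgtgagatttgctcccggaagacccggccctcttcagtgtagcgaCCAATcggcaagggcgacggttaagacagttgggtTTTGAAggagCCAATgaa
Ccnb1: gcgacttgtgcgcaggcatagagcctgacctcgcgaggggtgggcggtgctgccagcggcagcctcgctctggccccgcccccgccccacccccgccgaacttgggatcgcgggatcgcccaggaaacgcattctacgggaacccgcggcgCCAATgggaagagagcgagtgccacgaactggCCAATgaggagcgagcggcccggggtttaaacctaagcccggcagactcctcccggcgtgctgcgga

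In Cdk1 the CHR nearest the start begins 15 bases before it, and a CCAAT pair on the other strand is spaced 32 bases. Ccnb1 holds a pair of CCAAT boxes 32 bases apart and no CHR with these letters. Cdc20 holds a CHR 18 bases before the start between CCAAT boxes, and Espl1 one 27 bases before the start. Mad2l1, which fell by 1.07 ± 0.18 on the log2 scale, holds neither set of letters in its window. Cdca8 holds its CHR after the start, outside the printed stretch. Of 40 CHR matches in the members' windows, 33 lay within 120 bases of the start, as did 50 of 69 CCAAT matches. Positions within 120 bases of the start make up the larger part of a window, and no share for other promoters was worked out. In genes with more than 1 start, a site was counted once for each start whose window held it.

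Members with and without the letters overlapped in the size of the fall. The median log2 fold change was -2.08 in the 28 members with a CHR (range -2.99 to -0.38) and -1.78 in the 10 without (range -2.49 to -1.07). Among 653 other tested genes whose promoters hold both a CHR and a CCAAT box, 215 fell (32.9%) and 25.4% rose. Of all tested genes, with or without a promoter entry, 27.9% fell and 27.6% rose. Whether these shares differ was not tested. A match is a description of the letters and not a sign that a factor binds.

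**Figure D3:**
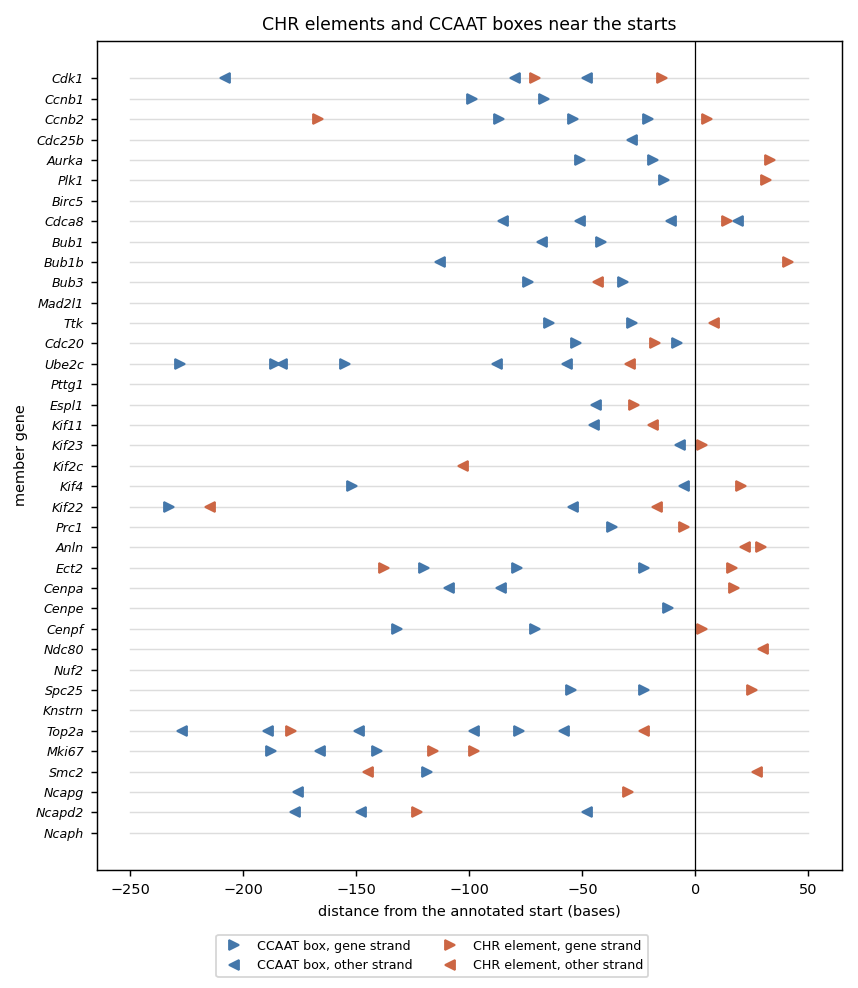
Positions of CHR elements (orange) and CCAAT boxes (blue) from 250 bases before to 50 bases after the annotated start in the 38 members with a RefSeq promoter, 1 row for each gene and 1 start per gene, with the arrow giving the strand. Of the CHR matches, counted once for each start, 33 of 40 lie within 120 bases of the start, a stretch that makes up the larger part of the window.

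The 47 genes had nearly the same order of libraries within each group. TNF-alpha replicate 1 was the lowest TNF-alpha library for 46 of the 47 (38.6% of all tested genes), and TNF-alpha replicate 2 the highest for 45 (34.6%). Vehicle replicate 2 was the lowest vehicle library for all 47 (33.2%), and vehicle replicate 3 the highest for 41 (36.6%). The other kinesin, spindle and cytokinesis genes shared the whole of this order, and other cell-cycle lists shared parts of it. TNF-alpha replicate 1 was the lowest TNF-alpha library for 23 of 24 other kinesin, spindle and cytokinesis genes, 19 of 30 other centromere and kinetochore genes and 26 of 34 replication genes. Vehicle replicate 2 was the lowest vehicle library for 23, 30 and 30 genes of the same lists. TNF-alpha replicate 2 was the highest TNF-alpha library for 23, 21 and 16 of them, and vehicle replicate 3 the highest vehicle library for 23, 19 and 12. In the remaining lists TNF-alpha replicate 1 was the lowest for 76.5% of condensin and cohesin genes and 72.7% of G1 genes. It was the lowest for 57.1% of DREAM, MuvB, E2F and NF-Y genes, 55.0% of other mitotic kinases and CDK1 regulators and 35.3% of APC/C genes. Among myotube markers, which are not cell-cycle genes, it was the lowest for 66.7%. Relative to each gene's vehicle mean, the median log2 level over the 47 genes was -2.99, -1.47 and -2.02 in TNF-alpha replicates 1, 2 and 3, and 0.05, -0.40 and 0.27 in the vehicle libraries. The median coefficient of variation of the 47 genes was 46.0% between TNF-alpha libraries and 23.2% between vehicle libraries, against 8.13% and 7.90% over all tested genes. It ranged from 8.13% for Bub3 to 77.3% for Ndc80 with TNF-alpha. Total counts were 93533748, 86794483 and 85429933 in TNF-alpha replicates 1, 2 and 3. Without TNF-alpha replicate 1 the median log2 fold change of the 47 genes was -1.71, and without TNF-alpha replicate 2 it was -2.43.

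**Figure D4:**
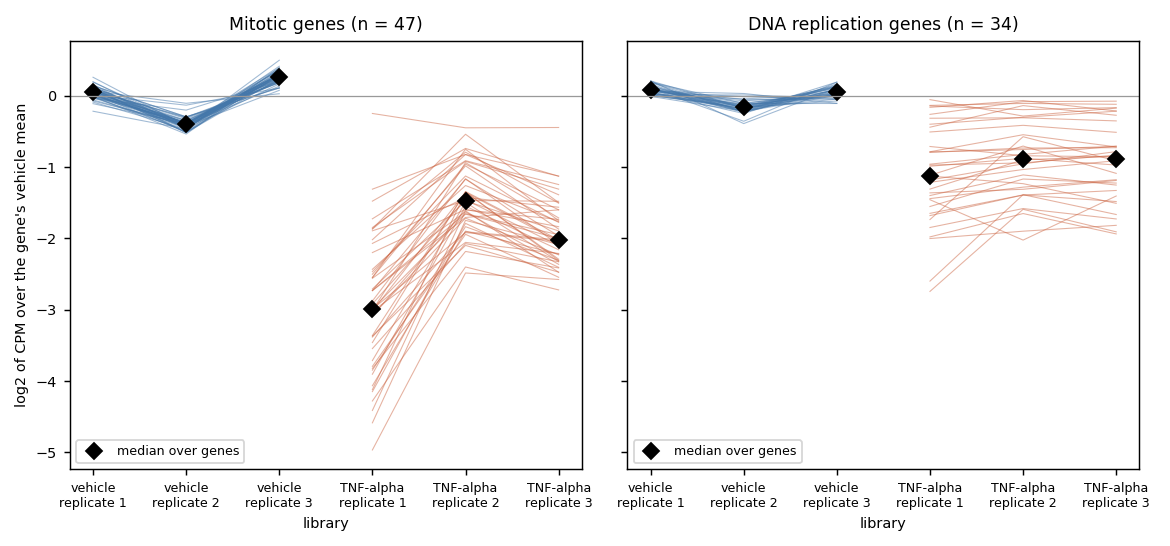
Log2 of CPM over each gene's vehicle mean, by library, for the 47 mitotic genes (left) and the 34 DNA replication genes (right). Thin lines join the values of 1 gene within a group, replicate numbers have no order, and diamonds are medians over genes, which are -2.99, -1.47 and -2.02 in the TNF-alpha libraries on the left and -1.12, -0.89 and -0.88 on the right.

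Replication genes, active in the preceding S phase, fell for the most part. Of 34 listed, 28 fell, 0 rose and 6 missed the threshold (median log2 fold change -0.96). Their median coefficient of variation between TNF-alpha libraries was 8.86%. Mcm6, a subunit of the replicative helicase, had 71.4, 59.1 and 75.4 CPM in the vehicle libraries and 17.2, 18.4 and 19.5 CPM in the TNF-alpha libraries (log2 fold change -1.90 ± 0.10, adjusted p = 1.7e-06). Pcna, the sliding clamp of DNA polymerase, had 117, 100.0 and 110.2 CPM in the vehicle libraries and 99.6, 102 and 101 CPM in the TNF-alpha libraries (log2 fold change -0.12 ± 0.07, adjusted p = 0.165), and leaving out vehicle replicate 2 gave an adjusted p of 0.0478. Whether the mitotic genes differ from the replication genes was not tested.

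Other mitotic genes, listed by role and not among the 47, fell for the most part but not throughout. Of 24 other kinesin, spindle and cytokinesis genes, 17 fell, 2 rose and 5 missed the threshold (median -1.68), and their median coefficient of variation between TNF-alpha libraries was 50.8%. Kif18a, a kinesin that dampens chromosome movement, fell by 1.69 ± 0.16 (adjusted p = 3.65e-05). Psrc1, encoding a microtubule-binding protein of the spindle, rose 9.41-fold, with 2.75, 2.74 and 3.37 CPM in the vehicle libraries and 23.5, 32.1 and 27.9 CPM in the TNF-alpha libraries (log2 fold change 3.23 ± 0.14, adjusted p = 7.14e-07). Of 30 other centromere and kinetochore genes, 22 fell, 4 rose and 4 missed the threshold (median -1.03). Pmf1, a subunit of the MIS12 complex, fell by 1.17 ± 0.10 (adjusted p = 2.61e-05). Zwint, which links the outer kinetochore to the checkpoint, rose, with 138, 117 and 149 CPM in the vehicle libraries and 258, 254 and 253 CPM in the TNF-alpha libraries (log2 fold change 0.92 ± 0.09, adjusted p = 4.14e-05).

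Of 20 other mitotic kinases and CDK1 regulators, 13 fell, 1 rose and 6 missed the threshold (median -0.77). The kinase gene Nek7 fell by 0.63 ± 0.07 (adjusted p = 6.51e-05). The gene that rose was Ccnf, encoding the F-box protein cyclin F, with 10.9, 7.96 and 12.9 CPM in the vehicle libraries and 28.9, 24 and 25.7 CPM in the TNF-alpha libraries (log2 fold change 1.31 ± 0.17, adjusted p = 0.000367). The APC/C genes lay near 0, with 7 of 17 fallen, 2 risen and 8 that missed the threshold (median -0.09). Fbxo5, encoding the APC/C inhibitor EMI1, fell by 1.87 ± 0.17 (adjusted p = 2.87e-05), and Fzr1, encoding the activator CDH1, rose by 0.28 ± 0.07 (adjusted p = 0.00969). Of 17 other condensin and cohesin genes, 11 fell, 1 rose and 5 missed the threshold (median -0.31). The cohesin core gene Smc1a fell by 0.87 ± 0.07 (adjusted p = 1.12e-05), and the cohesin release factor gene Wapl, listed as Wapal in the table, rose by 0.18 ± 0.05 (adjusted p = 0.0131).

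**Figure D5:**
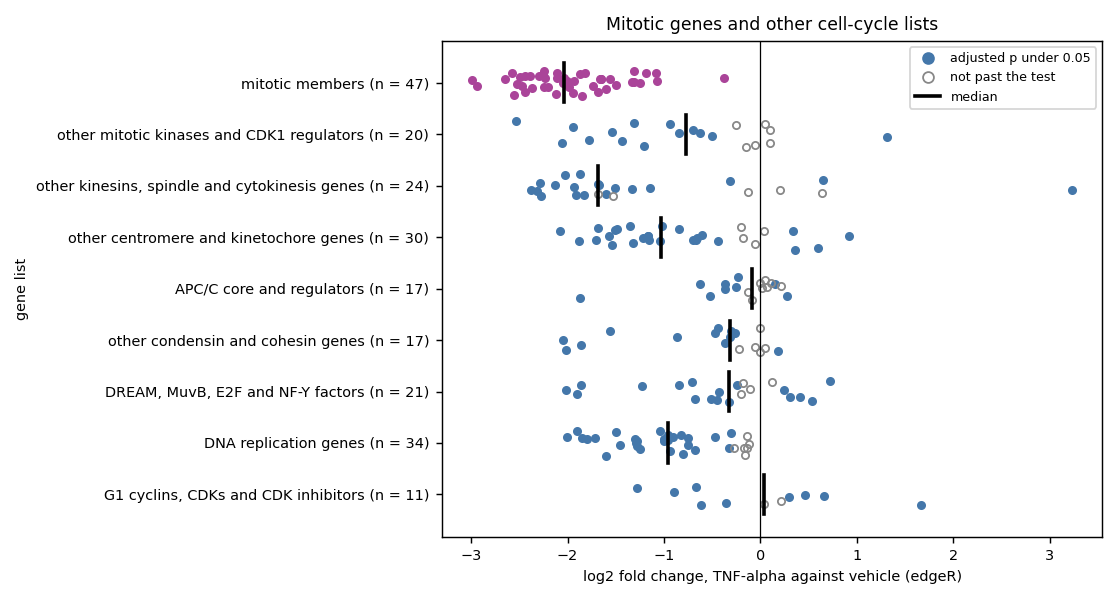
Log2 fold change of each tested gene in the 47 mitotic genes and in 8 other cell-cycle lists, with filled points past edgeR's test, open points not past it and black bars at the median. The median of the mitotic genes is -2.04, and those of the other lists run from -1.68 for kinesin, spindle and cytokinesis genes to 0.04 for G1 cyclins, CDKs and CDK inhibitors.

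Regulators upstream of the mitotic programme moved in both directions. Of 21 genes for DREAM, MuvB, E2F and NF-Y factors, 12 fell, 5 rose and 4 missed the threshold (median -0.33). E2f2, encoding an activator E2F, had 36, 35.9 and 30.4 CPM in the vehicle libraries and 13.4, 15.8 and 14.3 CPM in the TNF-alpha libraries (log2 fold change -1.23 ± 0.09, adjusted p = 1.28e-05). Nfyb, encoding a subunit of the CCAAT-binding factor NF-Y, rose, with 22, 19.7 and 22.3 CPM in the vehicle libraries and 34.9, 33.2 and 37 CPM in the TNF-alpha libraries (log2 fold change 0.72 ± 0.08, adjusted p = 7.75e-05). Among G1 genes 5 fell, 4 rose and 2 missed the threshold, of 11 tested. Ccnd1, encoding cyclin D1, rose 3.17-fold, with 70.9, 70.3 and 103 CPM in the vehicle libraries and 233, 308 and 233 CPM in the TNF-alpha libraries (log2 fold change 1.66 ± 0.19, adjusted p = 0.000351). Cdk2, the kinase of the G1 to S transition, fell by 0.90 ± 0.06 (adjusted p = 4.29e-06), and Cdkn1a, encoding the inhibitor p21, rose from 1085 ± 117 to 1490.2 ± 97.2 CPM, a log2 fold change of 0.46 ± 0.10 (adjusted p = 0.00327). Cdkn2a and Cdkn2b had 0 counts in all 6 libraries.

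Cell type markers moved with the groups as well, and their part in the fall of the mitotic genes was not tested. Of 12 myotube markers 10 fell, 1 rose and 1 missed the threshold, and their summed level ran from 14363 to 16713 CPM with vehicle and from 7950.2 to 9086 CPM with TNF-alpha, so markers of the labelled cell type were abundant in both. Of 10 markers of undifferentiated or reserve myoblasts 7 fell, 2 rose and 1 missed the threshold. Their sums were 2247 to 2695 CPM with vehicle and 2055 to 2086 CPM with TNF-alpha. These sums joined opposite moves of abundant genes, singled out after their values were seen. Mean levels fell from 1367 to 916 CPM for Itga7, from 335 to 114 for Cdh15 and from 98.8 to 51.3 for Myod1. Sdc4 rose from 267 to 490 CPM, and Vcam1, which missed the threshold, went from 272 to 413. At far lower levels, Pax7 fell from 0.858 to 0.272 CPM and Myf5 rose from 9.17 to 12.9 CPM. The median log2 fold change of these 10 markers was -0.56. Of 7 tested fibroblast markers 5 fell and 2 rose, with sums of 8530.0 to 9047 and 10438 to 11516 CPM, and Tcf21 had 0 counts in all libraries. The higher sum with TNF-alpha came from Dcn, encoding the collagen-binding proteoglycan decorin and singled out after its values were seen, which rose from 2029 ± 265 to 6022 ± 200.3 CPM. Without Dcn the fibroblast sums were 6463 to 7078 CPM with vehicle and 4444 to 5411 CPM with TNF-alpha. Macrophage markers summed to 14.3 to 15.1 CPM with vehicle and 89.3 to 106 CPM with TNF-alpha, with 4 of 5 tested risen, while the defining genes Ptprc and Adgre1 had group means of at most 0.0339 CPM. Endothelial markers stayed low, with sums of 4.41 to 6.14 and 4.34 to 4.99 CPM, and 1 of 4 tested fell and 1 rose.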

How the data were processed

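The authors deposited 1 table of estimated counts by gene, with decimals in 20.1% to 21% of the values of a library. The submitters' processing notes name TopHat2 2.1.1, Bowtie2 2.3.5.1, featureCounts, Subread 2.0.0 and DESeq2, and the builds mm10 and GRCm38, without saying what each was used for. Counting options, strand included, are not stated there. Per the labels' protocols, polyadenylated RNA libraries were made with a stranded kit and sequenced in paired-end mode.

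Estimated counts were rounded, filtered with filterByExpr and scaled with TMM in edgeR 4.0.16 (R 4.3.3). TNF-alpha was tested against vehicle with robust quasi-likelihood over 15792 genes, group as the only term, and Benjamini-Hochberg adjustment. Standard errors were derived from the F statistic. The procedure was tested on simulated data with 200 changed genes, independent genes and the same biological spread for every gene. It found 93.75% of genes changed 2-fold and 100% of those changed 4-fold. The 47 genes had a larger median spread between libraries and varied together, so these shares do not apply to their calls. Replicates differed by more than sampling noise (chi-square per degree of freedom 22.9 to 70.1). The alternatives were other scalings and filters, DESeq2 1.42.0, limma-voom (limma 3.58.1), no robust estimation, a replicate block, and leaving out each library. Gene spans and exon lengths came from GENCODE M21 (GRCm38), where all 47 members were found, and 6 listed genes of other lists were matched by older symbols. The members and lists were chosen with earlier results of these data known. All 47 members are named. From each other list, the gene with the smallest p in each direction is named, with Cdkn1a, Mybl2 and Pcna as fixed genes. Other names without values were chosen after values were seen. Depth sets the counting error, which is small beside the spread between libraries at these counts.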

Additional observations from a re-analysis of the deposited data

How the results depend on the processing

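All 47 mitotic genes kept their direction under the 14 alternatives. The number that fell was 47 with median-ratio and upper-quartile scaling, with a mean of at least 1 CPM, with DESeq2, with limma-voom and with no robust estimation, 38 with no filter on low counts, and 34 to 47 with 1 library left out. In a fit with the replicate number as a block 37 were called as fallen. The same-numbered libraries of the groups, however, did not deviate together (correlations of 0.04, -0.05 and -0.11 for numbers 1, 2 and 3). Not every library correlated best with its own number. The block moved no other count of calls by over 1.5 times except the APC/C rises below and, by role, the centromere and kinetochore genes (8 to 3) and the chromosome structure genes (7 to 4). The median log2 fold change ran from -2.43 to -1.71. The difference in the share of counts was -0.106 percentage points with TMM-scaled library sizes and -0.125 to -0.0943 with 1 library left out (-0.108 over all). The 2 APC/C genes that rose became 1 with upper-quartile scaling, with no filter and with the replicate block, and were 1 to 2 with 1 library left out. The number of libraries, 3 in each group, limits the precision more than depth.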
